A study of Mus musculus with 12 samples.

Results

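The Schlafen genes of the mouse were followed in iNKT1 cells with and without the transcription factor Ets1. They were listed by name (Slfn1, Slfn2, Slfn3, Slfn4, Slfn5, Slfn8 and Slfn9) because Slfn5 was low in Ets1-deleted thymic cells. The family was thus chosen by the Slfn5 values of cKO against control thymus, and its thymus values are given as a description, with no p and as support for nothing. Of these 7 genes, 6 had a row in the table of 14004 genes, and all 6 were among the 13058 genes tested. Slfn4 was not analysed here. A pseudogene of the same cluster, Slfn10-ps, also had a row and is given beside the members.

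iNKT1 cells are innate-like T cells that recognise lipid antigens on CD1d and express the transcription factor T-bet, encoded by Tbx21. Cells positive for the CD1d tetramer and for YFP were sorted from thymus and liver. Control mice carried Tbx21Cre and the Rosa26-YFP reporter. The cKO mice carried both of these and the floxed Ets1 alleles (Ets1F/F) in addition, so the Cre and the reporter were shared by every group. Each of the 4 groups had 3 libraries. Deletion can occur only in cells that have expressed the Cre, and YFP marks those cells. Strain, age and sex are not given in the sources used here. The replicates are called independent but are not tied to single animals, so p-values measure the spread between these libraries. RNA was measured in bulk, so fewer cells of a type and less RNA per cell cannot be told apart.

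Values are the authors' read counts per gene adjusted for library size, called adjusted values here, and reads are the whole reads recovered from them. Recovered depth was 18.5 to 43.4 M (mega) reads in 10 libraries, 3.87 M in control liver 3 and 3.21 M in cKO liver 2. Control thymus 1 and 2 stood apart, with 3528 and 2824 genes without a read against 966 to 2223 in the other 10 libraries. Ets1, the targeted gene, had adjusted values of 23692, 28051 and 19493 in control thymus and 11817, 7069 and 5788 in cKO thymus. In liver it was 18773, 18528 and 15910.2 in control and 3594, 4425 and 5787 in cKO libraries. The cKO libraries lay below the controls in both tissues, as their labels state, and reads over the gene remained in each cKO library. All 12 T cell and iNKT1 markers were present, though not all at like levels in both genotypes, and Xcl1 and Tbx21 among them are given with the results. Markers of other cell types that differed between groups are given with the results.

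Schlafen proteins are regulators of RNA and of growth found in mammals. They share an N-terminal core domain that in several members binds or cleaves tRNA. The short members, Slfn1 and Slfn2, end soon after this core. Slfn3 and Slfn4 are of intermediate size, and the long members, Slfn5, Slfn8 and Slfn9, also carry a C-terminal helicase-like domain. Many are induced by type I interferon, and in T cells the family is best known from Slfn2, which is needed to keep resting T cells quiescent.

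All members lie in 1 cluster on chromosome 11 (GRCm38), chr11:82951349-83286726, a span of 335.4 kb that ends with Slfn14. Slfn5 (chr11:82951349-82964840), Slfn2 (chr11:83065112-83070678), Slfn1 (chr11:83116849-83122670) and Slfn3 (chr11:83191330-83215154) are on the plus strand. Slfn9 (chr11:82978390-82991830), Slfn8 (chr11:83002158-83020810) and Slfn10-ps (chr11:83028130-83040042) are on the minus strand. Slfn5 is overlapped by an antisense transcript, Slfn5os (chr11:82942341-82960681, minus strand). The sources used here do not say whether counting used strand, so reads of Slfn5 and Slfn5os cannot be told apart.

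Sequence similarity limits how well some members can be separated. None of the 50-base stretches of the Slfn5 transcripts occurred in another Schlafen transcript, and 0.606% of those of Slfn1 did. The share was 4.27% for Slfn2, in each case shared with Slfn4, and 7.39% for Slfn3, also with Slfn4. It was 11.2% for Slfn9, 14.6% for Slfn8 and 19.7% for Slfn10-ps, shared most with one another. Values of Slfn8, Slfn9 and Slfn10-ps are therefore the least certain, since the counting of such reads can split or drop them.

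The sequences before the start sites are shown because the long members hold an interferon-type motif, and Slfn1 and Slfn2 an ETS-type motif that other windows of the cluster, Slfn5 among them, hold as well. They are RefSeq windows of GRCm38.p6, taken up to 250 bases before the start and printed 5′ to 3′ on the gene's strand. Capitals mark matches, on either strand, to the core of the interferon-stimulated response element (ISRE: GAAA, any 2 bases, GAAA), or to CAGGAA, an ETS-type core. The Slfn5 stretch (chr11:82951852-82951984, plus) stops before an annotated exon and lies inside the gene's span, while the windows of Slfn9 (chr11:82991831-82992080, minus), Slfn8 (chr11:83020811-83021060, minus), Slfn2 (chr11:83064862-83065111, plus) and Slfn1 (chr11:83116570-83116819, plus) overlap no annotated gene.
Slfn5: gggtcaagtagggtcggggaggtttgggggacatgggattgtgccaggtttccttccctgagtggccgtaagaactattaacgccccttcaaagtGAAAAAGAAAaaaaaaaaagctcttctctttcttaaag
Slfn9: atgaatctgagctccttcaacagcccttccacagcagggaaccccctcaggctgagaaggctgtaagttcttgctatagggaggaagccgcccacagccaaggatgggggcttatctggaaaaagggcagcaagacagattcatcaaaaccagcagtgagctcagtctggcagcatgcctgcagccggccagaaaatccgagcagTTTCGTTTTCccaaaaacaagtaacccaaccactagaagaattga
Slfn8: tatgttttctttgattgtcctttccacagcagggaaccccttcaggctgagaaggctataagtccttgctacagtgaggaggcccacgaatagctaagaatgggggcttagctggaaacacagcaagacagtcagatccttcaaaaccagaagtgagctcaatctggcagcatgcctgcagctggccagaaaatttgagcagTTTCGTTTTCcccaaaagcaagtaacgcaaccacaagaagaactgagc
Slfn2: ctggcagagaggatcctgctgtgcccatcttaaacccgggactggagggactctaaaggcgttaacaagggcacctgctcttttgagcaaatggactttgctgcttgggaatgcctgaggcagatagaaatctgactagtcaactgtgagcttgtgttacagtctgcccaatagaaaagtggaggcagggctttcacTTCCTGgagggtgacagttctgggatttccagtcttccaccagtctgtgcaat
Slfn1: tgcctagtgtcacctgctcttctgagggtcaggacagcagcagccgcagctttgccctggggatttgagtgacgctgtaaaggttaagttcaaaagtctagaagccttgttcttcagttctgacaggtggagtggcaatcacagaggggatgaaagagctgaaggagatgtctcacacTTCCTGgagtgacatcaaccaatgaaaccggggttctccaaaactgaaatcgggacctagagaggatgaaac

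In RefSeq 9 promoter windows belong to the cluster's genes. The ISRE letters were found in 4 of the 9, against 2.98% of 32851 mouse promoter windows. They lay at -155 to -146 from the start in Slfn5, at -45 to -36 in Slfn9, and at -48 to -39 or -136 to -127 from the 2 RefSeq starts of Slfn8. The 2 Slfn8 windows overlap and hold the same site, so the count of 4 includes it 2 times. Slfn8 and Slfn9 held the same 10 letters, TTTCGTTTTC on the gene's strand. The letters CAGGAA were found in 6 of the 9 windows, against 25.7% of all, at -72 to -67 in Slfn1 and -53 to -48 in Slfn2. In Slfn5 they lay at -88 to -83, beyond the printed stretch, and the windows of Slfn3, Slfn4 and Slfn14 held them too. The letters CCGGAA were found in 1 of the 9 (Slfn4), against 12.03% of all, and the T-box letters GGTGTGA in 0 of the 9, against 3.33%. These matches describe letters in a short window and not binding.

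Levels were compared between genes per kilobase of exon. In control thymus the mean adjusted value per kb was 2959.6 ± 2002 (SD, n = 3) for Slfn1 and 2626 ± 491 for Slfn8, and these did not differ beyond their spread. Slfn2 followed at 1474 ± 612. Slfn5 was at 251 ± 165 and Slfn9 at 133 ± 27.7, also overlapping, and Slfn3 was lowest at 39.7 ± 52.7. In control liver the order was Slfn8 (1898 ± 400.2), Slfn1 (1708 ± 293), Slfn2 (1445 ± 320.4), Slfn5 (263 ± 40.99), Slfn9 (154 ± 126) and Slfn3 (16.7 ± 22.1). The neighbours among the leading 3 lay within the SD between libraries, though the order of these 3 was the same within each control liver library. The short members and Slfn8 made up nearly all of the family's signal per kb.

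The summed level per kb of the 6 members came to 7483 ± 2939 for control and 3353 ± 414 for cKO thymus (SD, n = 3). In liver it came to 5486 ± 946 for control and 3244 ± 265 for cKO cells. Within it, Slfn5 made up 3.92% ± 2.64 in control and 0.146% ± 0.225 in cKO thymus. In liver its share was 4.93% ± 1.30 and 0.707% ± 0.780. The share of Slfn8 was 37.6% ± 9.40 and 48.3% ± 2.88 in control and cKO thymus, and 34.5% ± 1.96 and 48.4% ± 7.14 in control and cKO liver. In cKO cells the mean summed signal was smaller. In liver a larger part of it came from Slfn8 every cKO library (40.2% to 52.8%) lay above every control (32.4% to 36.3%). In thymus these shares overlapped between genotypes.

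**Figure D1:**
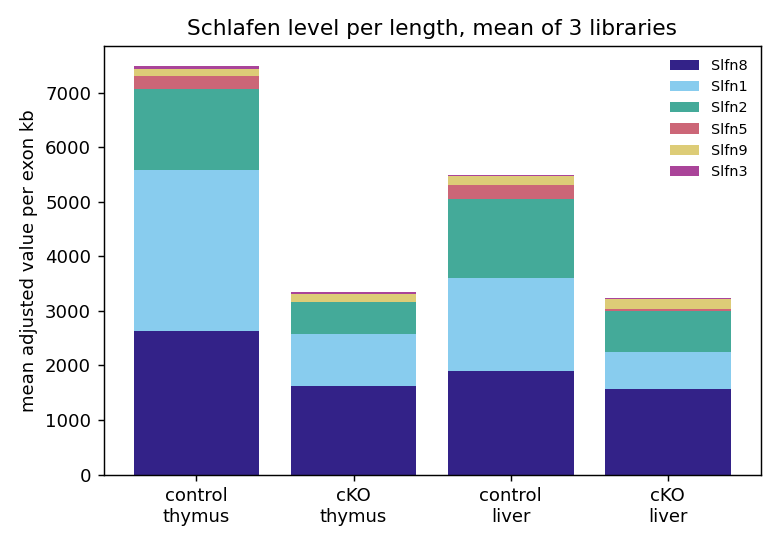
Mean adjusted value per kb of exon, summed over 6 Schlafen genes (stacked colours), for each group of 3 libraries. Slfn8, Slfn1 and Slfn2 fill most of each bar, and the sum goes from 7483 to 3353 with genotype in thymus and from 5486 to 3244 in liver.

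Slfn5, a long member found in the nucleus, was the lowest of the family relative to its control in cKO cells of both tissues. In thymus the adjusted values were 2659, 567.8 and 1535.5 in control and 3.08, 73.8 and 4.37 in cKO libraries, the latter from 3, 79 and 6 reads. Every cKO library was below every control, and cKO thymus 2 stood above the other cKO libraries. The mean was 1587 ± 1047 in control and 27.1 ± 40.5 in cKO thymus (SD, n = 3), or 1.71% of control, and the fitted log2 fold change of adjusted value + 1 was -6.81 ± 1.20 (SE). The fit averages logarithms, so its value is not the ratio of these means. Over the 23 alternatives it ran from -8.14, without cKO thymus 2, to -5.74, with a pseudocount of 10. These values chose the family and carry no p.

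In liver, which the choice did not use, Slfn5 was 1923.5, 1405 and 1665 in control and 37.4, 74.6 and 297.9 in cKO libraries, the latter from 61, 11 and 346 reads. Again every cKO library was below every control, here by more than the spread of either group. The mean was 1664 ± 259 in control and 137 ± 141 in cKO liver (SD, n = 3), or 8.21% of control. The log2 fold change was -4.11 ± 1.20 (95% interval -6.63 to -1.60). The unadjusted p in limma was 0.0029, and the p adjusted over all genes by Benjamini-Hochberg was 0.17, so the difference did not pass 0.05. DESeq2 on the recovered reads gave an adjusted p of 0.014 and limma on the liver libraries alone 0.0068, and over all 23 alternatives the adjusted p ran from 0.0068 to 0.85 with the log2 fold change between -4.94 and -3.46.

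The residual Slfn5 signal in cKO cells summed to 88 reads over 3 libraries in thymus, 79 of them in cKO thymus 2, and to 418 in liver, 346 of them in cKO liver 3. Liver exceeded thymus by 3.02 ± 1.20 on the log2 scale in cKO cells and by 0.32 ± 1.20 in control cells, but the cKO groups overlapped: cKO thymus 2 (73.8) lay above cKO liver 1 (37.4). The genotype difference in liver minus that in thymus was 2.70 ± 1.70. No p is given for these, since Slfn5 was the gene by whose thymus values the family was chosen. Among cKO liver libraries the order of Slfn5 was that of residual Ets1 (lowest in 1, highest in 3), and in cKO thymus it was not. With 3 libraries a group this is a description.

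**Figure D2:**
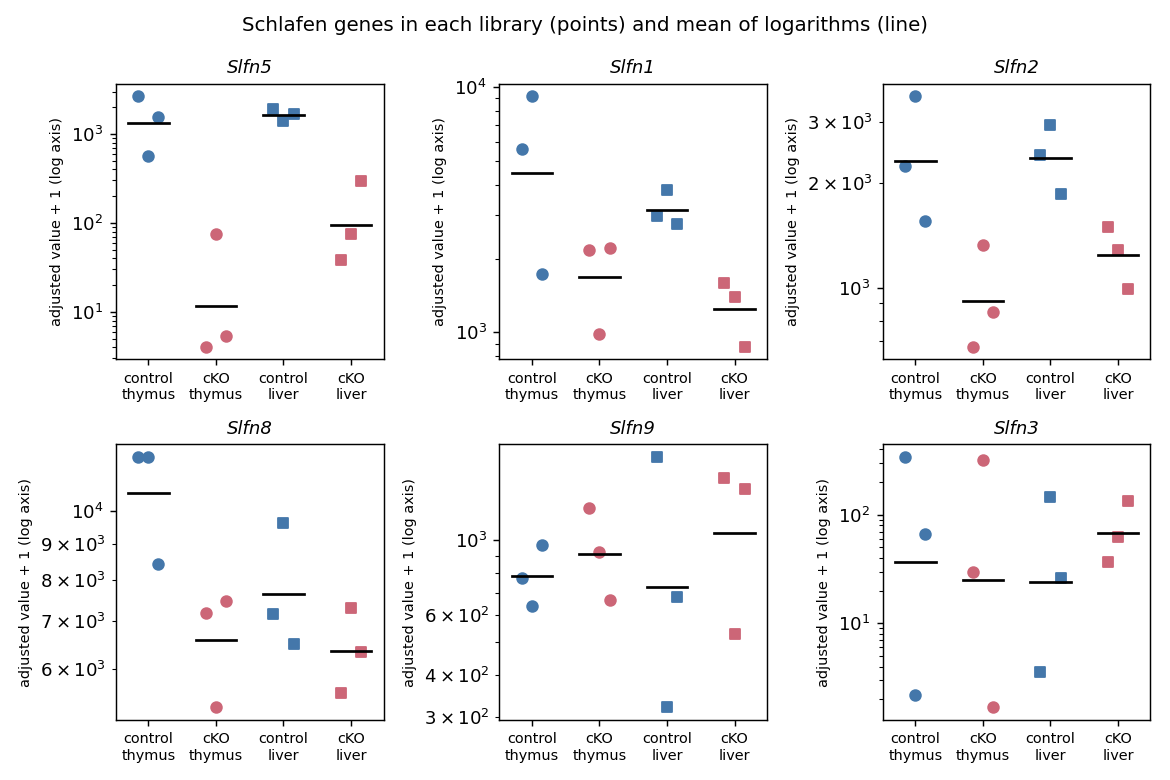
Adjusted value + 1 (log axis, its range set for each gene) of 6 Schlafen genes in each library, by group; points are libraries and lines the mean of the logarithms. Slfn5 separates the genotypes in both tissues, from 567.8 or above in control to 297.9 or below in cKO, while Slfn9 and Slfn3 overlap throughout.

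Slfn2, the short member tied to T cell quiescence, was lower in cKO cells of both tissues by a smaller amount. In thymus it was 2236.5, 3561.5 and 1558 in control and 675.5, 1326 and 849.5 in cKO libraries, without overlap. In liver it was 2418, 2932 and 1866 in control and 1493, 1280.1 and 990.2 in cKO libraries, also without overlap. The log2 fold change was -1.34 ± 0.46 (SE) in thymus, given with no test. Without control thymus 1 and 2 it was -0.77 ± 0.56. It was -0.93 ± 0.46 in liver (95% interval -1.89 to 0.02, limma adjusted p = 0.75), a ratio of means of 1.92 that did not pass the test.

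Slfn1, the other short member, first described as a brake on T cell growth, showed a like difference with a wider spread. In thymus it was 5616, 9197.5 and 1736 in control and 2167, 983.0 and 2209.7 in cKO libraries. Control thymus 3 lay below 2 of the cKO libraries, so the groups overlapped. The log2 fold change was -1.42 ± 0.52, -2.10 without control thymus 3, and -0.05 without control thymus 1 and 2, the libraries with many genes without a read. In liver it was 2975, 3804 and 2774 in control and 1583, 1387 and 874.8 in cKO libraries, without overlap. The log2 fold change there was -1.34 ± 0.52 (95% interval -2.44 to -0.25; limma unadjusted p = 0.019, adjusted p = 0.46). Limma on the liver libraries alone gave an adjusted p of 0.041, and the alternatives ran from 0.041 to 0.99.

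Slfn8, a long member and the most abundant of the family by adjusted value in every group, differed little in liver. In thymus it was 11912, 11895.5 and 8422 in control and 7187, 5298 and 7485 in cKO libraries, all below the controls. In liver it was 7166, 9617 and 6511 in control and 5543, 7316 and 6342.5 in cKO libraries, which overlapped. The log2 fold change was -0.69 ± 0.27 in thymus, and -0.36 without control thymus 1 and 2. It was -0.27 ± 0.27 in liver (95% interval -0.82 to 0.29, limma adjusted p = 1).

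Slfn9, the neighbour of Slfn5 and also a long member, showed no difference in cKO cells that could be told from its spread. In thymus it was 774.7, 639.5 and 967.7 in control and 1242, 922.3 and 663.1 in cKO libraries. In liver it was 1765, 319.2 and 679.1 in control and 1529.8, 527.5 and 1422 in cKO libraries. Both pairs of groups overlapped, with a log2 fold change of 0.22 ± 0.66 in thymus and 0.53 ± 0.66 in liver (95% interval -0.85 to 1.90, limma adjusted p = 1). The sign was stable in neither tissue. The thymus value was -0.08 after TMM rescaling and -0.09 without control thymus 1 and 2. The liver value was -0.07 without control liver 2 and 1.17 without control liver 1.

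Slfn3, of intermediate size, was scarce and changed from library to library within each group. In thymus its adjusted values were 339.6, 1.19 and 65.2 (control) and 28.8, 315.9 and 0.688 (cKO). In liver they were 2.58, 143 and 25.4 (control) and 35.6, 61.1 and 133 (cKO). Single reads stood beside 303 and 338 reads in libraries of the same group, and the SE of 2.19 on the log2 scale was too wide to show a difference in either tissue (thymus -0.54; liver 1.49, limma adjusted p = 1). The thymus value turned to 1.06 without control thymus 1 and to 1.41 without cKO thymus 3. The pseudogene Slfn10-ps had thymus values of 1179, 1489 and 2311 (control) and 819.2, 2093 and 557.0 (cKO). Its liver values were 951.7, 393.0 and 455.2 (control) and 649.2, 846.5 and 483.0 (cKO). Genotypes overlapped in both tissues.

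Counted over the family, 5 of 6 members were lower and 1 higher in cKO thymus, with a median log2 fold change of -1.02 beside 0.24 for all tested genes. Slfn2, Slfn5 and Slfn8, 3 of the 6, were lower with no overlap, where 6.89% of all genes were. Past the limma threshold, an adjusted p of 0.05, lay 0.636% of all genes and 1 member, Slfn5, by which the family was chosen. The choice used this contrast, so nothing is read from these counts. In liver 4 of 6 were lower and 2 higher, with a median of -0.60 beside 0.03 for all genes. Limma called 0 of the 6 (2 at an unadjusted p under 0.05, where 6.92% of all genes were; edgeR called 0 and DESeq2 1, where they called 0.299% and 2.17% of all genes), where limma called 0.505% of all genes. Slfn1, Slfn2 and Slfn5, 3 of the 6, were lower with no overlap, where 8.66% of all genes were.

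**Figure D3:**
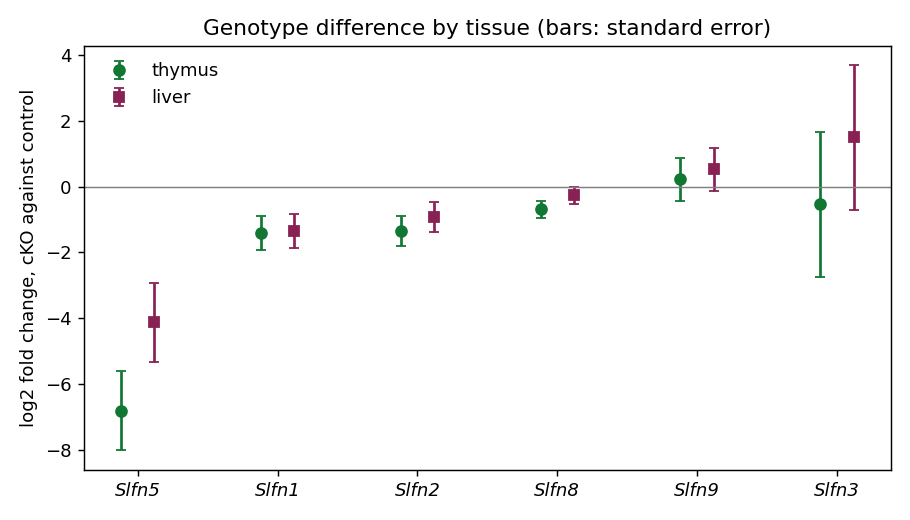
Fitted log2 fold change, cKO against control, for 6 Schlafen genes in thymus (circles) and liver (squares); bars are the standard error. Slfn5 is at -6.81 and -4.11, Slfn1 and Slfn2 lie between -1.42 and -0.93, and the bars of Slfn9 and Slfn3 are wide.

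Liver and thymus were then compared within a genotype for the 5 members other than Slfn5. In control cells limma called 0 of the 5, where 0.605% of all genes were called. At an unadjusted limma p under 0.05 there were 0, where 12.7% of all genes were. Of the 5, edgeR and DESeq2 also called 0, where over all genes they called 49 and 478. In cKO cells limma called 0 of the 5, where 0.222% of all genes were called. At an unadjusted limma p under 0.05 there were 0, where 7.6% of all genes were. Of the 5, edgeR and DESeq2 also called 0, where over all genes they called 18 and 264. The intervals were wide, in control cells from -5.21 to 3.98 for Slfn3 and -1.48 to 1.27 for Slfn9. No member was free of overlap, where 15.4% of all genes were in control and 16.1% in cKO cells. In control cells Slfn8 was -0.47 ± 0.27 and Slfn1 -0.50 ± 0.52 in liver relative to thymus (limma adjusted p = 0.47 and 0.73). The pseudogene Slfn10-ps was the one Schlafen gene whose control groups did not overlap, where 5.83% of all genes were lower in that way, at -1.52 ± 0.61 (limma adjusted p = 0.31).

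The test of whether the genotype difference depended on tissue called 0 of the 5 members in limma, where limma called 0.00766% of all genes. At an unadjusted limma p under 0.05 there were 0, where 5.38% of all genes were. Of the 5, edgeR and DESeq2 also called 0, where over all genes they called 3 and 113. For Slfn1 the liver difference minus the thymus difference was 0.07 ± 0.74, with a 95% interval of -1.47 to 1.62. For Slfn2 it was 0.41 ± 0.65 (-0.95 to 1.76) and for Slfn8 0.42 ± 0.38 (-0.37 to 1.21). The limma adjusted p was 0.99, 0.96 and 0.94. These intervals leave room for a difference of more than 1 on the log2 scale for each.

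Across the 12 libraries, Slfn1 and Slfn8 varied most alike (Pearson r = 0.85 of log2 adjusted value + 1), followed by Slfn2 and Slfn5 (0.79) and Slfn1 and Slfn2 (0.71). Slfn9 went with none of the other members, with r from -0.49 with Slfn8 to -0.10 with Slfn3. These are descriptions over 12 libraries that share the 4 group means. Among 10800 genes with a mean of at least 50, those most like Slfn5 were Dgka (0.92), a diacylglycerol kinase, Dusp7 (0.91), a phosphatase of MAP kinases, Cnp (0.91), Rps16 (0.91, 0.905 before rounding), a ribosomal protein gene, and Gstt2 (0.90), a glutathione transferase. The group means of Dgka were 6873 and 471 in control and cKO thymus and 5476 and 1371 in control and cKO liver. Those most like Slfn2 were Dop1b (0.94), Ptpn7 (0.93), a tyrosine phosphatase of lymphocytes, Rbm38 (0.91), an RNA-binding protein, Rab8a (0.91), a GTPase of vesicle traffic, and Gm10101 (0.89).

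The genes around the cluster were read in the same fits, in which 13.2% of all genes in thymus and 6.92% in liver had an unadjusted limma p under 0.05, and DESeq2 called 5.13% and 2.17%. Within 500 kb on either side 60 other genes were annotated, 20 had a row and 19 were tested. Limma called 0 of the 19 in thymus (2 at an unadjusted p under 0.05; 0 with edgeR, and 1 with DESeq2, the chemokine gene Ccl5) and 0 in liver (1 unadjusted; 0 by edgeR and by DESeq2). Their median log2 fold change was 0.31 in thymus (from -2.69 to 3.72), beside 0.24 for all genes. It was -0.05 in liver (from -2.53 to 3.24), beside 0.03 for all genes. Slfn9, the next Schlafen gene after Slfn5, was at 0.22 and 0.53. The lowest of the 19 in both tissues was Nle1, on the other side of Slfn5 and chosen after its values were seen, at -2.69 and -2.53 (limma adjusted p = 0.64 and 1).

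**Figure D4:**
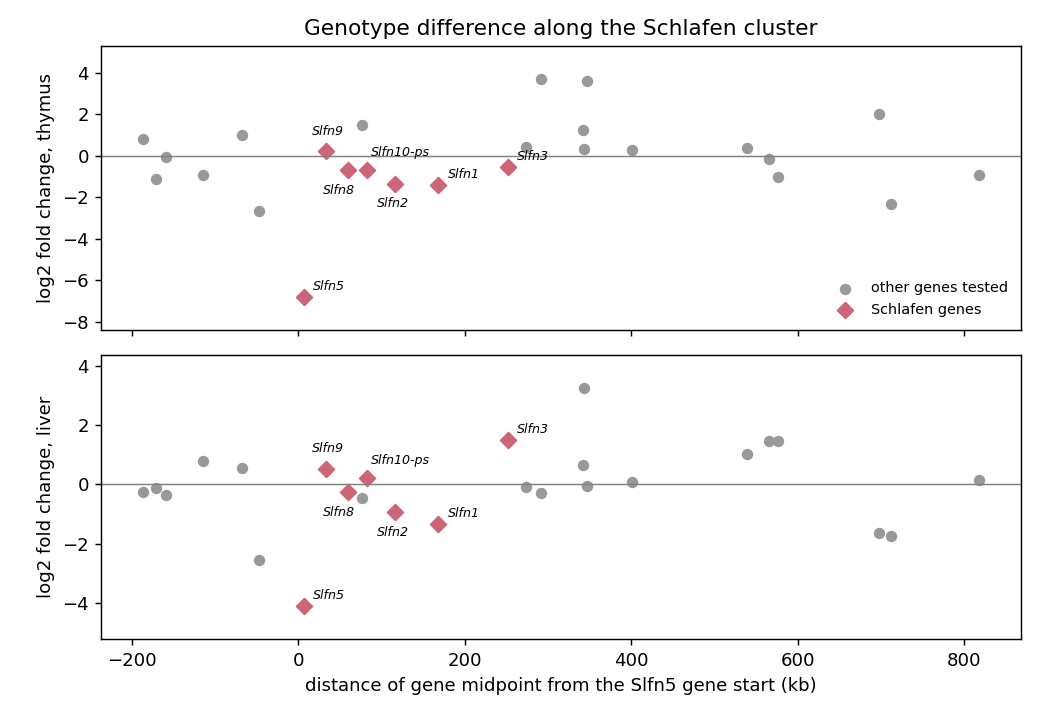
Fitted log2 fold change, cKO against control, in thymus (top) and liver (bottom) for Schlafen genes (diamonds) and other tested genes (circles), by distance of the gene's midpoint from the Slfn5 gene start in kb. Slfn5 is at -6.81 and -4.11, below every neighbour shown, and the other 19 genes run from -2.69 to 3.72 in thymus.

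Counts over lists of other genes are read against all tested genes. In thymus 13.2% of these had an unadjusted limma p under 0.05, edgeR called 0.391% and DESeq2 5.13%. In liver the shares were 6.92%, 0.299% and 2.17%. Schlafen genes are interferon-induced, so a list of 30 other type I interferon-induced genes was read beside them. Limma called 0 of the 30 in thymus (10 at an unadjusted p under 0.05; 0 with edgeR, and 3 with DESeq2: Ifi44, Ifih1 and Isg15) and 0 in liver (6 unadjusted; 0 with edgeR, and 2 with DESeq2: Ifi44 and Rtp4). Of these DESeq2 calls, Ifi44 in thymus alone was higher in cKO cells. The limma log2 fold change of Ifi44 was 2.94 ± 2.03 for thymus and -5.11 ± 2.03 for liver. Its thymus values ranged from 0.021 to 0.044 (control) and from 0 to 494.8 (cKO). The cKO thymus mean was 164.9 ± 285.7 (SD, n = 3), nearly all of it from 1 library. Its liver values ranged from 11.1 to 165 (control) and from 0 to 0.922 (cKO). Ifih1 was lower in cKO cells of both tissues, at -1.49 ± 0.50 in thymus and -1.40 ± 0.50 in liver (limma adjusted p = 0.19 and 0.38). Isg15 was lower in cKO thymus, and Rtp4 (-1.69) was lower in cKO liver. In thymus 20 of the 30 had a negative log2 fold change (42.3% of all genes did), with a median of -0.68. In liver 22 of 30 did (48.5% of all genes), with a median of -0.48. The most abundant members were Samd9l, an antiviral factor, and Parp14, an ADP-ribosyltransferase. Samd9l was 14766 ± 2794 and 11600 ± 925 in control and cKO thymus, and 9697.5 ± 2203 and 11571 ± 1205 in liver (limma adjusted p = 0.58 and 1). Parp14 was 8143 ± 1961 and 4855 ± 539 in thymus, and 7613 ± 2157 and 5268 ± 504 in liver (limma adjusted p = 0.28 and 0.86). Oas2 and Isg15, chosen after their values were seen, show how members differ. Oas2, a double-stranded RNA sensor, was -5.24 ± 1.98 in thymus and -6.88 ± 1.98 in liver (limma adjusted p = 0.26 and 0.16). Isg15, a ubiquitin-like protein, was -3.13 ± 0.96 in thymus and 0.08 ± 0.96 in liver (limma adjusted p = 0.15 and 1).

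Of 14 tested genes for interferon receptors and their signalling, limma called 0 in thymus and 0 in liver (3 and 2 at an unadjusted p under 0.05; 0 with edgeR in each, and 1 with DESeq2 in each, Ifngr1). Ifngr1 was higher in cKO cells, at 1.20 ± 0.305 in thymus and 1.30 ± 0.305 in liver (limma adjusted p = 0.082 and 0.058). The medians of the list were 0.07 and -0.40. Jak1, a kinase of these receptors, was 0.16 ± 0.21 in thymus and -0.04 ± 0.21 in liver (limma adjusted p = 0.79 and 1). Of 15 tested regulators of T cell quiescence 0 were called in either tissue by limma, edgeR or DESeq2 (3 in thymus and 2 in liver at an unadjusted limma p under 0.05), with medians of -0.50 in thymus and 0.00 (-0.003) in liver. Foxo3, a transcription factor of resting T cells, was -0.77 ± 0.40 in thymus and 0.34 ± 0.40 in liver (limma adjusted p = 0.42 and 1).

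Slfn2 is known to shield tRNA from cleavage, so genes of that process were listed. Of the 4 tested, limma called 0 in either tissue (2 in thymus and 0 in liver at an unadjusted p under 0.05; edgeR 0 in each, and DESeq2 1 in thymus, Nsun2), with medians of -1.92 in thymus and -0.15 in liver. Nsun2, a tRNA methyltransferase, went from 2896 ± 726 to 848 ± 445 with genotype in thymus (limma -1.86 ± 0.47 on the log2 scale, adjusted p = 0.078) and from 1734 ± 527 to 1382 ± 219 in liver (-0.30 ± 0.47, adjusted p = 1). Rnh1, an inhibitor of ribonucleases, was -1.12 ± 0.57 in thymus and 0.28 ± 0.57 in liver (limma adjusted p = 0.40 and 1). Of 12 tested genes of the ATR replication stress response limma, edgeR and DESeq2 called 0 in either tissue (2 in thymus and 1 in liver at an unadjusted limma p under 0.05), with medians of 0.76 and -0.02. Atr itself was -0.78 ± 0.45 and -0.39 ± 0.45, and Ddb1, a ubiquitin ligase subunit, 0.48 ± 0.33 and -0.31 ± 0.33.

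**Figure D5:**
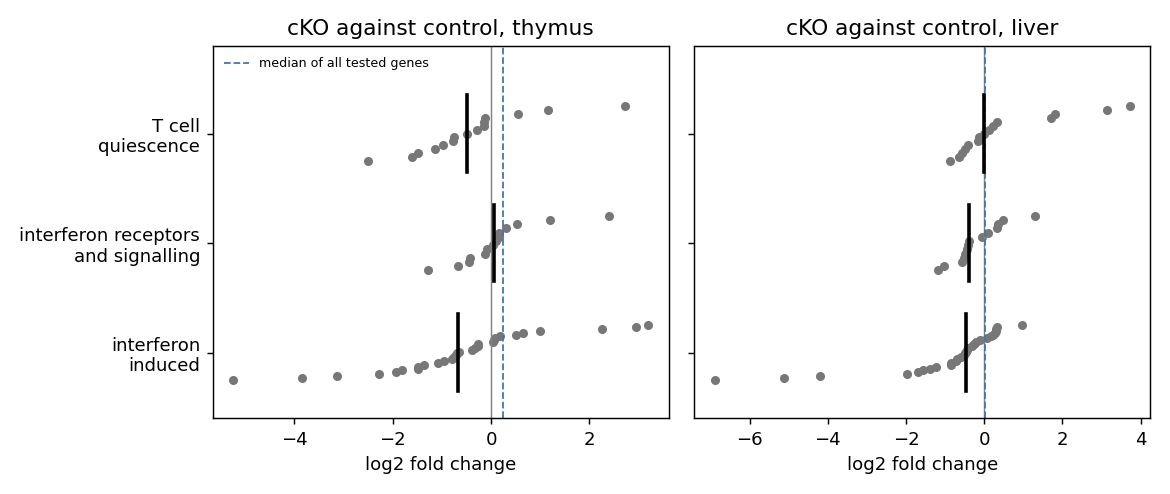
Fitted log2 fold change, cKO against control, of each tested gene in 3 lists of other genes, for thymus (left) and liver (right; the axes differ); thick bars are list medians and the dashed line the median of all tested genes. The interferon-induced genes have medians of -0.68 and -0.48, and the quiescence genes -0.50 and 0.00.

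Of the 12 T cell and iNKT1 markers limma called 0 in thymus and 1 in liver, where it called 0.636% and 0.505% of all genes. The 1 was Xcl1, lower in cKO liver (-2.54 ± 0.42, limma adjusted p = 0.0062). Tbx21 was 0.95 ± 0.44 in thymus and 0.92 ± 0.44 in liver (limma adjusted p = 0.37 and 0.73). In thymus 8 of the 12 were higher and 4 lower, and in liver 7 and 5. Markers of other cell types moved with genotype as follows. Dendritic cell markers (7 of 10 present) summed to 196 to 1288 in control and 3551 to 7031 in cKO thymus, most of it Itgax. Flt3, Clec9a and Siglech were without a row. In liver the dendritic sums overlapped, at 1338 to 2947 in control and 1851 to 3624 in cKO libraries. Itgax alone was 0.833 to 299 in control and 920 to 2130 in cKO liver, and it did not stand for its list there. In liver 3 of the 7 had a positive and 4 a negative log2 fold change (48.5% of all genes were negative), with a median of -0.84. B cell markers (6 of 9) summed to 5471 to 8085 in control and 1085 to 2082 in cKO liver, most of it Ighm (-2.18 on the log2 scale, adjusted p = 0.024 in limma), with Pax5 and Ebf1 without a row. Of 12 neutrophil markers only Mmp9 had a row, at 3033 to 3585 in control and 0 to 1.16 in cKO liver. Of 12 endothelial markers 2 had rows. Their sum was 71.8 to 302 in control and 0.923 to 68.5 in cKO thymus. In liver it was 463 to 671 in control and 1.16 to 88.8 in cKO libraries. The part of these cell types in the Schlafen values was not tested.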

How the data were processed

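Total RNA of sorted thymic and liver iNKT1 cells was sequenced from a low-input library kit, per the labels' protocols, in 4 groups of 3 libraries. Per the submitters' processing notes, reads were handled with Trimmomatic 0.33, TopHat2 2.1.0, STAR and HTSeq 0.6.1 on mm10, with DESeq2 also named. The deposited signal values are gene counts that the authors adjusted for library size. They were inverted to whole reads on the assumption of a negative binomial quantile adjustment with a fitted dispersion of 1.6, which no source states. The share of values within 0.1 of a whole read was 91.3% to 99.98% per library. The reads and depths of all 12 libraries rest on this inversion, and so do the edgeR and DESeq2 fits. The share was lowest in control liver 3 (91.3%), cKO liver 2 (91.89%) and cKO liver 1 (93.06%). Symbols were matched for 13359 of 14004 IDs.

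Genes at 10 or more in at least 3 libraries (13058) were tested with limma 3.58.1 (R 4.3.3, variance trend) on log2(value + 1), with 1 mean per group over all 12 libraries and Benjamini-Hochberg adjustment over all genes. Fold changes are on that scale, and those of genes with few reads move with the pseudocount. edgeR 4.0.16 and DESeq2 1.42.0 on recovered reads, another pseudocount or filter, rescaling, a replicate block and left-out libraries were alternatives. Members, gene lists and markers were chosen with earlier results of these data known. Besides the members, the 2 most abundant genes of each list are named, with any that passed the test; 2 of these genes are not reported here. Slfn4 was not analysed here.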

Additional observations from a re-analysis of the deposited data

How the results depend on the processing

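The number of the 6 Schlafen members called in thymus was 1 in the main analysis, 3 with DESeq2 on recovered reads (Slfn1, Slfn2 and Slfn5), and 0 in each of 3 settings: the 2 thymus groups alone, without the 2 libraries under 5 M reads, and without both control thymus 1 and 2. Leaving out 1 library at a time gave 0 to 2: 0 without control thymus 1, cKO thymus 1 or cKO thymus 3, and 2 (Slfn1 and Slfn5) without control thymus 3. The thymus calls over all genes moved as well. They rose far above the 83 of the main analysis without control thymus 3. They fell below 83 in the left-out settings with 0 members. They also fell without any other single library, where the member count stayed at 1. The family was chosen on this contrast, so the member counts support nothing. For liver the number of members called was 0 in the main analysis, 1 with DESeq2 (Slfn5) and 2 with the liver groups alone (Slfn1 and Slfn5). No direction of a called value was reversed under the alternatives run. Over all genes the calls ranged more widely: 83 in thymus (0 with the thymus groups alone, where 952 had an unadjusted limma p under 0.05; 51 with edgeR, 619 with DESeq2), 66 in liver (7 without the shallow libraries, 292 with the liver groups alone), 79 between tissues in control cells (12 to 478), 29 in cKO cells (3 to 264) and 1 for the dependence on tissue (1 to 113). After TMM rescaling the thymus calls went from 41 higher and 42 lower to 27 and 90, and after median-of-ratios rescaling to 31 and 58, as the median gene moved from 0.24 to -0.03 and 0.10. Between tissues in control cells they went from 44 and 35 to 37 and 73, and to 42 and 53, as the median moved from 0.28 to 0.00 (-0.005) and 0.15. Slfn8 in thymus was -0.99 after TMM rescaling.

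Replicate numbers were not used to pair samples, since deviations of same-numbered libraries correlated at -0.10 to 0.08, none above 0.1. With the replicate number as a block, 1 member was called in thymus, 0 in liver, 0 between tissues in either genotype and 0 for the dependence on tissue. The 3.87 and 3.21 M reads of the shallow libraries limit Slfn5 in cKO liver 2, which rests on 11 reads.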
